A study of Mus musculus with 8 samples.

Results

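The genes described here are 7 genes of ileal bile acid handling: Fabp6, Slc10a2, Slc51a, Slc51b, Nr1h4, Nr0b2 and Fgf15, out of 15123 genes measured. Fabp6 and Fgf15 were selected on their measured log ratios, which stood at the extremes of several groups, so their values are given as a description with no test. The other 5 were listed for their part in the same pathway. Every probe that the platform's gene table assigns to these symbols was taken, which gave 1 probe for each gene, and all 7 had a value on every array.

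The study compared intestinal crypt cells of Lgr4 (Gpr48) null mice, which carry a gene-trap allele on the outbred CD1 background, with crypt cells of wild-type CD1 mice. Lgr4 encodes a membrane receptor that binds R-spondins and thereby amplifies Wnt signals. The 8 arrays form 4 groups of 2: crypts at day 0, at day 0.5 and at day 1 of culture, and crypts kept for 1 day in LiCl, which blocks the kinase GSK3. RNA of both genotypes was hybridised to the same array in different dyes, except that the sources differ on whether the second channel of the LiCl arrays held LiCl-treated wild-type crypts or control cells. The sources give no age or sex of the mice and no stretch of the intestine, and leave unstated whether arrays of a group hold RNA of different animals or cultures. All p-values therefore measure the spread between arrays, which may be technical. The labels name a gene trap and no Cre driver, and Lgr4 itself was not analysed here. A ratio carries no level in either genotype, so whether a gene was expressed at all in these crypts could not be read from it.

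Each value is the log ratio of a gene on 1 array after the array's median was set to 0, taken as log2, with null over wild type as the likely direction. "Higher" and "lower" refer to null crypts in that direction. A gene was called when its limma p, adjusted by Benjamini-Hochberg over the 15123 genes, was under 0.05. Between arrays, correlations over probes were 0.307 to 0.737 within groups and 0.154 to 0.49 between the 3 groups without LiCl. By contrast both LiCl arrays had negative correlations with each of the 6 others (12 pairs, r from -0.493 to -0.0855), which leaves the direction of the LiCl ratios uncertain. LiCl values are given as deposited, and comparisons with them are given with the sign turned as well. Turning the sign does not settle what the second channel held, so the LiCl group and the others may not measure the same contrast.

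Bile acids secreted into the duodenum are taken back in the terminal ileum. Slc10a2 carries them from the lumen into the enterocyte together with sodium, Fabp6 binds them in the cytosol, and the Slc51a and Slc51b subunits form the exporter of the basolateral membrane. Inside the cell bile acids activate the nuclear receptor Nr1h4 (FXR), which raises transcription of Fabp6, Slc51a, Slc51b, Fgf15 and the repressor Nr0b2 (SHP). Fgf15 is secreted from the ileum and, through Fgfr4 and its partner Klb on hepatocytes, lowers bile acid synthesis in the liver. In mice these genes are known for expression in the ileum rather than the proximal small intestine, mostly in differentiated enterocytes of the villus.

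Promoter windows, from 250 bases before to 50 after the transcription start, were found for 6 of the 7 genes in RefSeq (GRCm38.p6), all but Fgf15. The Fabp6 window is shown because it held 2 matches to the inverted repeat of AGGTCA with a 1-base spacer, the element that FXR binds together with its partner RXR. Up to 2 differences in the 12 fixed bases were allowed and both strands were searched. The Fabp6 window lies at chr11:43601513-43601812 on the minus strand, and capitals mark the matches, which begin at -222 and -142 from the start and have 2 differences each.
Fabp6 promoter: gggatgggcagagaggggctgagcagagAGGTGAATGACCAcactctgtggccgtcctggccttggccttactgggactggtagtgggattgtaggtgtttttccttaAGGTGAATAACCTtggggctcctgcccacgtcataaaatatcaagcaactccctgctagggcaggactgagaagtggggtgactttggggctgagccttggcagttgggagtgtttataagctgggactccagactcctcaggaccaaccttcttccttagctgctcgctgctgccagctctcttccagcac
Such a match was present in 374 of 32851 promoter windows of this length (1.14%), and 2 or more in 4 (0.0122%). No match to these letters was found in the windows of Slc10a2, Slc51a, Slc51b, Nr1h4 and Nr0b2.

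A second search used the inverted repeat of GTTAAT with a 1-base spacer, the element of the enterocyte factor HNF1, with the same allowance and both strands. It is shown for Slc10a2, a known HNF1 target, whose window lies at chr8:5105238-5105537 on the minus strand. The match in capitals begins at -224 and has 1 difference.
Slc10a2 promoter: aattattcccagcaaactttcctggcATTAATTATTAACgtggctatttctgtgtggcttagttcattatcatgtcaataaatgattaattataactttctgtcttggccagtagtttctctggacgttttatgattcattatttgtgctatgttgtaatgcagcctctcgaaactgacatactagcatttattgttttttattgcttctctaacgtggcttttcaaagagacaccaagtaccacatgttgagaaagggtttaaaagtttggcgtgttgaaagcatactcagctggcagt
Nr1h4 also held a match, with 2 differences at -40 of a start that lies inside the gene (chr10:89506686-89506698, minus strand).
Nr1h4 match: GTTAATCAGTAAA
Among all windows 446 (1.36%) held a match to this element. The windows of Fabp6, Slc51a, Slc51b and Nr0b2 held none. A match describes letters in the sequence and is not evidence of binding in these cells.

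Fabp6, the ileal bile acid binding protein, had the largest group mean in absolute value among the 7 genes in each of the 4 groups. Its log2 ratio was 2.41 and 2.05 on the day 0 arrays, 1.62 and 1.41 at day 0.5, and 2.39 and 2.25 at day 1. All 6 arrays without LiCl lay above 0, with the day 0.5 pair lowest, and the group means correspond to 4.70-fold, 2.85-fold and 4.99-fold. With LiCl the values were -1.62 and -1.78, the opposite sign at 3.24-fold.

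Because Fabp6 was picked for these values, they only describe it. Its array mean ranked 9 from the top of 15123 genes at day 0, 10 at day 0.5 and 11 at day 1, and 3 from the bottom with LiCl as deposited. Its neighbours in that order were Anxa10 (2.23) and Saa1 (2.34) at day 0, and Zg16 (2.30) and Cyp3a11 (2.45) at day 1. With LiCl they were Aoc1 at -1.76 and Ces1g at -1.42.

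**Figure D1:**
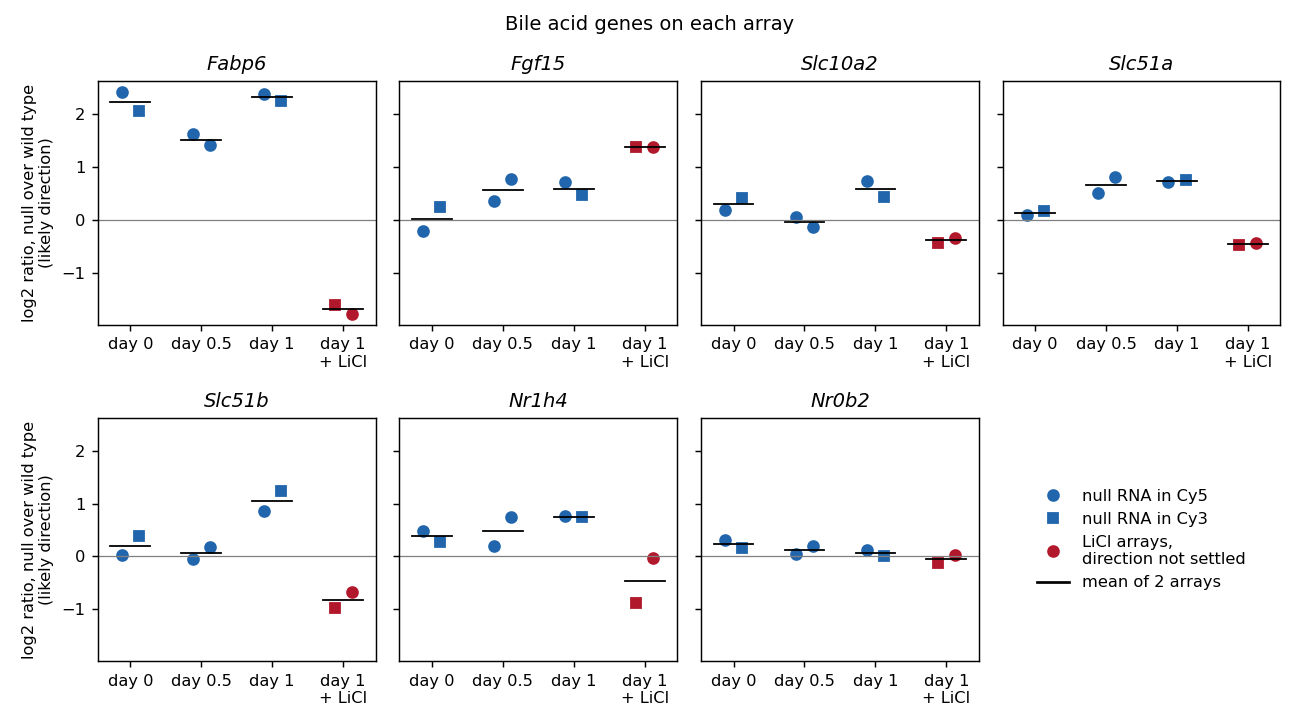
Log2 ratio (array median 0, null over wild type in the likely direction) of the 7 genes on each of the 8 arrays, 1 panel a gene on a shared vertical scale, circles for arrays with null RNA in Cy5, squares for Cy3, red for LiCl and bars for the mean of 2 arrays. Fabp6 lies between 1.41 and 2.41 on the 6 arrays without LiCl and below 0 on both LiCl arrays, while Fgf15 is highest with LiCl.

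Slc10a2, the apical uptake carrier, showed smaller values. They were 0.18 and 0.42 at day 0, 0.05 and -0.13 at day 0.5, 0.74 and 0.43 at day 1, and -0.43 and -0.35 with LiCl. The day 1 arrays were the highest and the LiCl arrays the lowest. However, the lower day 1 array (0.426) was almost level with the higher day 0 array (0.419). The fitted ratio at day 1 was 0.58 ± 0.12 (limma standard error, n = 2 arrays, adjusted p = 0.0140). At day 0 it was 0.30 ± 0.12 (adjusted p = 0.309, limma), at day 0.5 it was -0.07 ± 0.14 (adjusted p = 0.908), and with LiCl -0.39 ± 0.12 (adjusted p = 0.179).

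Slc51a and Slc51b, which work only as a pair in the basolateral exporter, both had their day 1 values called. Slc51a gave 0.08 and 0.17 at day 0, 0.51 and 0.82 at day 0.5, 0.71 and 0.75 at day 1, and -0.49 and -0.44 with LiCl. Its values were thus close to 0 in fresh crypts and above 0.5 on all 4 arrays of cultured crypts without LiCl. The fitted ratio was 0.73 ± 0.11 at day 1 (1.66-fold, adjusted p = 0.00347, limma) and 0.68 ± 0.13 at day 0.5, which did not pass (adjusted p = 0.0946). That day 0.5 value passed without the dye term (adjusted p = 0.0177) and with replicate 2 of day 0.5 taken as a dye swap (adjusted p = 0.0261), as the series text, unlike the labels, describes.

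Slc51b gave 0.02 and 0.39 at day 0, -0.05 and 0.18 at day 0.5, 0.87 and 1.24 at day 1, and -0.98 and -0.68 with LiCl. Unlike Slc51a it was near 0 at day 0.5, and its day 1 and LiCl arrays stood apart from the rest on either side. The day 1 value of 1.06 ± 0.14 (2.08-fold, adjusted p = 0.00248, limma) was the largest among the 5 genes tested. With LiCl the fitted value was -0.83 ± 0.14 (adjusted p = 0.0365), which no longer passed when any single array was left out (adjusted p from 0.0573 to 0.338). The Slc51a value with LiCl was -0.46 ± 0.11 (adjusted p = 0.0811, and 0.0440 with the replicate block). Whether the subunits differ from each other at day 0.5 was not tested.

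Nr1h4, the bile acid receptor, gave 0.49 and 0.27 at day 0, 0.20 and 0.75 at day 0.5, 0.77 and 0.74 at day 1, and -0.89 and -0.04 with LiCl. All 6 arrays without LiCl were above 0, and the pairs of day 0.5 and LiCl were wide apart. Its fitted ratio at day 1 was 0.75 ± 0.18 (1.69-fold, adjusted p = 0.0239, limma), against 0.38 ± 0.18 at day 0 (adjusted p = 0.392) and 0.29 ± 0.21 at day 0.5 (adjusted p = 0.658). With LiCl it was -0.46 ± 0.18 (adjusted p = 0.300, and 0.0439 with the replicate block).

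Nr0b2, the repressor that FXR induces, was not called in any group. Its values were 0.31 and 0.16 at day 0, 0.05 and 0.20 at day 0.5, 0.12 and 0.02 at day 1, and -0.13 and 0.03 with LiCl. All 8 arrays lay within 0.31 of 0. The day 1 ratio was 0.07 ± 0.09 (adjusted p = 0.755, limma), with a 95% interval from -0.15 to 0.29. Signal over background is not known for this probe.

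Fgf15, the hormone of the pathway, did not follow Fabp6. Its log2 ratio was -0.22 and 0.24 at day 0, 0.35 and 0.76 at day 0.5, 0.71 and 0.46 at day 1, and 1.38 and 1.37 with LiCl. The day 0 arrays lay on either side of 0, the cultured arrays were all above it, and the LiCl pair was the highest. The means correspond to 1.47-fold at day 0.5, 1.5-fold at day 1 and 2.59-fold with LiCl.

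As with Fabp6, these values chose Fgf15 and are not tested. It ranked 6941 of 15123 at day 0, 349 at day 0.5, 1042 at day 1 and 11 with LiCl as deposited, so it was near an extreme with LiCl and not at day 0 or day 1. Next to it with LiCl stood Bex1 (1.37) and Ect2 (1.42).

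Without a test for Fabp6 and Fgf15, the calls concern 5 genes. At day 0, limma called 0 of these 5 (2 had an unadjusted p under 0.05), where 2.23% of all genes were called. At day 0.5 it again called 0 of 5 (1 unadjusted), with 0.436% of all genes. At day 1, 4 of 5 were called, all higher, where 20.5% of all genes were called (1418 higher and 1685 lower). With LiCl 1 of 5 was called, Slc51b, where 2.58% of all genes were. With the replicate block the genes called over the whole table became 610 in place of 337 at day 0, 237 in place of 66 at day 0.5 and 922 in place of 390 with LiCl.

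The day 1 calls rest on both arrays of that group. Without replicate 1 of day 1 the adjusted p was 0.344 for Slc10a2, 0.0818 for Slc51a and 0.0976 for Nr1h4, and without replicate 2 it was 0.0561, 0.0754 and 0.403. Slc51b kept its call without replicate 1 (adjusted p = 0.0375) and lost it without replicate 2 (adjusted p = 0.0740), all from limma. The 1 remaining array is then assumed to vary like the other groups. The day 1 value of Fgf15 was 0.35 without replicate 1 and 0.82 without replicate 2.

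Whether 1 day of culture moved the difference between genotypes was read from day 1 minus day 0. Of the 5 tested genes 1 was called, Slc51b, with a change of 0.85 ± 0.20 (adjusted p = 0.0489, limma), where 8.39% of all genes were called (1269 genes, and 1964 with the replicate block). Leaving out any array of day 0, day 0.5 or day 1 ended that call (adjusted p from 0.0659 to 0.359). Slc51a changed by 0.60 ± 0.15 without passing (adjusted p = 0.0597), and passed with the replicate block (adjusted p = 0.0353). The values for Slc10a2 (0.28 ± 0.17) and Nr1h4 (0.37 ± 0.25) did not pass (adjusted p = 0.429 and 0.494), nor did that for Nr0b2 at -0.16 (adjusted p = 0.598). The same difference of means was 0.09 for Fabp6 and 0.57 for Fgf15, not tested.

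From day 1 to day 1 with LiCl, as deposited, 4 of the 5 tested genes were called and all 4 fell, where 18.9% of all genes were called. Slc51b fell by 1.89 on the log2 scale, Nr1h4 by 1.22, Slc51a by 1.19 and Slc10a2 by 0.97, with adjusted p from limma of 0.00101, 0.0150, 0.00203 and 0.00744. Nr0b2 stood at -0.12, with a 95% interval from -0.43 to 0.20 (adjusted p = 0.729). The call of Slc10a2 ended without replicate 1 of day 1 (adjusted p = 0.0848), and that of Nr1h4 without replicate 2 of day 1 (0.137) or replicate 1 with LiCl (0.106). The difference of means was -4.02 for Fabp6 and 0.79 for Fgf15. This comparison and those against day 0 share the day 1 arrays. It is a change of the genotype ratio only if the second channel of the LiCl arrays held LiCl-treated wild-type crypts, on which the sources differ.

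With the LiCl arrays turned in sign, limma called 0 of the 5 genes in that comparison (0 also at an unadjusted p under 0.05), and the changes of the 4 became -0.23 for Slc51b, -0.29 for Nr1h4, -0.26 for Slc51a and -0.19 for Slc10a2 (adjusted p from 0.411 to 0.730, limma). Fabp6 then changed by -0.62 and Fgf15 by -1.96. Over all genes 1033 were called in place of 2856. On both LiCl arrays Fgf15 had the sign opposite to Fabp6, Slc10a2, Slc51a, Slc51b and Nr1h4, which turning both arrays leaves so by construction. Nr1h4 was close to 0 on replicate 2 (-0.04). Since Fabp6 and Fgf15 were picked for extreme values, their opposite signs only describe them.

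The signs of all genes called at day 1 were counted on the LiCl arrays as deposited. Of 1418 genes called higher 201 (14.2%) were above 0 on both LiCl arrays, 914 (64.5%) were below 0 on both, and 303 were mixed. Of the 1685 genes called lower at day 1, 1318 (78.2%) were above 0 on both. Among the pathway genes, Slc10a2, Slc51a, Slc51b and Nr1h4 belong to the 914, and Fgf15, not tested, had the signs of the 201. With the LiCl arrays turned and the same day 1 calls, 914 (64.5%) would be above 0 on both and 201 (14.2%) below, and each of these genes would change sides.

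**Figure D2:**
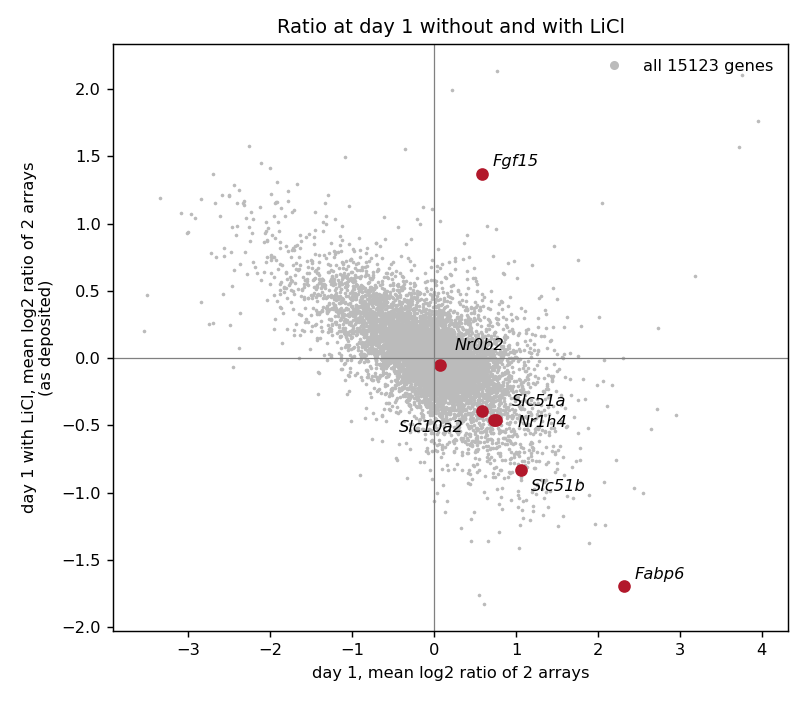
Mean log2 ratio of the 2 arrays at day 1 (horizontal) against day 1 with LiCl as deposited (vertical) for all 15123 genes as grey points, with the 7 pathway genes named. Fabp6, Slc10a2, Slc51a, Slc51b and Nr1h4 lie to the lower right, Nr0b2 near the origin and Fgf15 to the upper right.

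Other genes of bile acid transport and metabolism were taken by list, with the calls of the same fits. For every list below, the shares of all genes called were 2.23% at day 0, 0.436% at day 0.5, 20.5% at day 1 and 2.58% with LiCl. Of 14 bile acid and sterol transporters 12 were measured. At day 1, with 20.5% of all genes called, 5 were higher and 0 lower, with a list median of 0.49 against 0.00 for all genes. They were the cholesterol importer Npc1l1 (1.30), the canalicular and apical exporter Abcc2 (1.09), the sterol exporters Abcg8 (0.93) and Abcg5 (0.92), and the efflux pump Abcg2. At day 0, 3 were higher, Abcg2 at 0.88, Abcg8 at 0.66 and the cholesterol exporter Abca1 at 0.64. At day 0.5 Abcg5 was higher at 1.14, and with LiCl Abcc2 (-0.67) and Abcg5 (-0.62) were lower. The liver uptake carrier Slc10a1 was at 0.03 at day 1 and was not called in any group.

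Of 9 bile acid detoxification genes all 8 measured were called higher at day 1, where 20.5% of all genes were called. Their median was 1.44. They were led by the cytochromes Cyp3a11 (2.45), Cyp3a25 (1.89) and Cyp3a13 (1.79) and the epoxide hydrolase Ephx1 (1.59). At day 0 Cyp3a11 (2.20) and Cyp3a25 (1.26) were higher and the others were not called. At day 0.5 limma called 0 of 8 (6 unadjusted), with all 8 fitted values between 0.42 and 0.84. With LiCl 5 of 8 were lower, among them Cyp3a25 at -1.02 and Cyp3a11 at -0.97. Near-identical members of the Cyp3a and Ugt families may share signal on a probe.

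Among bile acid sensors and transcription factors 15 of 18 were measured. At day 1, with 20.5% of all genes called, 6 were higher and 0 lower (median 0.38). The largest values were those of Onecut2 (1.47), the xenobiotic receptor Nr1i3 (0.67), Gata4 (0.62), which in mice holds ileal bile acid genes off in the proximal intestine, and the vitamin D receptor Vdr (0.53). At day 0 and day 0.5 limma called 0 of 15 (3 and 6 had an unadjusted p under 0.05), and Vdr was lower with LiCl (-0.85). The FXR partner Rxra was at 0.51 at day 1 and did not pass (adjusted p = 0.0903, limma). The membrane bile acid receptor Gpbar1 was at 0.05.

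The receptor side of Fgf15 and the enzymes of bile acid synthesis, which work mainly in liver, gave 2 called genes of 14 measured at day 1, a smaller share than the 20.5% of all genes called. Both were higher: the peroxisomal oxidase Acox2 (0.72) and the steroid dehydrogenase Hsd3b7 (0.51). Acox2 was lower with LiCl (-0.89), and limma called 0 of 14 at day 0 and day 0.5 (0 and 1 unadjusted). At day 1 the receptor Fgfr4 stood at -0.31 and Cyp7a1, the rate-limiting enzyme, at 0.16, neither of them called.

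Relatives of Fabp6 formed another list. Of 9 measured fatty acid and retinoid binding proteins limma called 0 at day 0, day 0.5 and with LiCl (1, 1 and 3 unadjusted), and 2 were higher at day 1, a share near the 20.5% of all genes called. These were Rbp2, the enterocyte retinol binder, at 1.53 and Fabp2, the intestinal fatty acid binder, at 0.81. The list median was 0.02 at day 0 and 0.09 at day 1. Fabp1, the binder of the proximal intestine and liver, was at 0.79 at day 1 and did not pass (adjusted p = 0.296, limma). Fabp1, Fabp2 and Rbp2 had fitted values above 0 in the 3 groups without LiCl and below 0 with LiCl as deposited, and only the day 1 values of Fabp2 and Rbp2 passed. The day 0 arrays differed in sign for Fabp1 (1.455 and -0.587) and for Fabp2 (1.11 and -0.065).

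Genes marking other stretches of the gut were read beside the pathway. At day 1, where 20.5% of all genes were called and 1418 of 15123 were higher, 5 of 9 measured genes of the distal small intestine were higher (median 0.77), and so were 6 of 11 of the proximal small intestine (median 0.79) and 2 of 11 of the colon (median 0.06), with 0 lower in each list. At day 0 the called genes were 1 distal, the peptidase Enpep (0.72), 1 proximal, the adenosine deaminase Ada (2.51), and 0 colonic (0 also unadjusted). At day 0.5 the calcium binder S100g of the proximal list was higher (1.34). With LiCl 2 distal genes, 1 proximal gene (S100g) and 1 colonic gene (the chloride exchanger Slc26a3) were lower. No test between these lists was made.

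**Figure D3:**
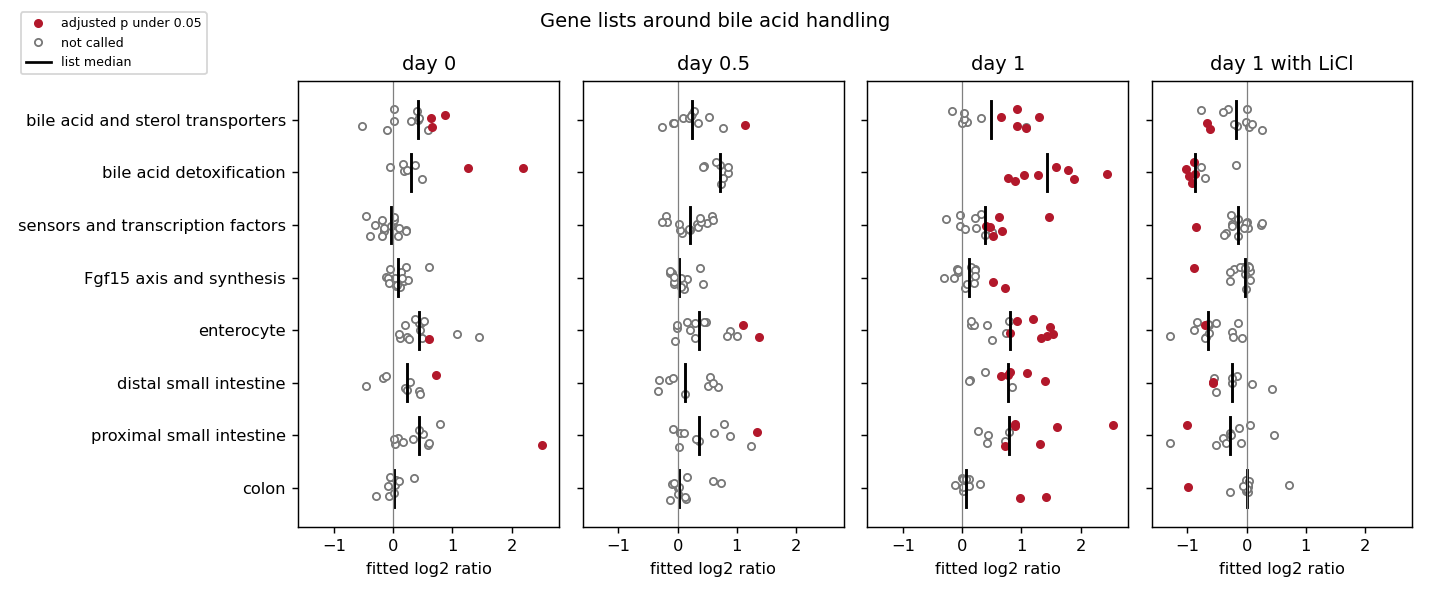
Fitted log2 ratio (horizontal) of each measured gene of 8 lists, 1 panel for each of the 4 groups, with filled points for adjusted p under 0.05 and a bar at the list median. All 8 detoxification genes are filled at day 1 and 5 are filled below 0 with LiCl, while the medians of the Fgf15 axis lie between -0.03 and 0.12.

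Markers of enterocytes, the absorptive cells that carry this pathway, were read in the same fits. Of 14 measured markers of 20, 1 was higher at day 0, 2 at day 0.5 and 7 at day 1, and 1 was lower with LiCl. Of all genes, 2.23%, 0.436%, 20.5% and 2.58% were called in these groups. The median of the list on single arrays was 0.37 to 0.40 at day 0, 0.44 to 0.45 at day 0.5, 0.76 to 1.02 at day 1 and -0.68 to -0.59 with LiCl. Their part in the values of the bile acid genes was not tested, and in bulk RNA more cells of a type and more RNA per cell cannot be told apart. With LiCl, as deposited, all 14 fitted markers were below 0, as were Fabp6, Slc10a2, Slc51a, Slc51b and Nr1h4, and Fgf15 was above 0.

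Markers of other cell types were read in the same way. Of all genes, 2.23% were called at day 0, 0.436% at day 0.5, 20.5% at day 1 and 2.58% with LiCl. Of 5 measured Paneth cell markers 5 were lower at day 0, 4 at day 0.5 and 5 at day 1, and limma called 0 with LiCl (0 also unadjusted). The Paneth median was -2.38 at day 1 and 0.20 with LiCl. Lower Paneth cell genes were among the reasons for the direction taken, so the sign of these markers is not a separate result. All 4 measured crypt base stem cell markers were lower at day 1 (median -1.58), and their median with LiCl was 0.03. Turning the LiCl arrays in sign would leave the Paneth and stem cell medians near 0. Goblet cell markers were higher for 4 of 5 and enteroendocrine markers for 6 of 8 at day 1. Hepatocyte markers had 1 of 5 higher at day 0, Tat at 1.21, and 0 called in the other groups, also unadjusted. Immune markers were lower for 3 of 6 at day 0 and 1 of 6 at day 0.5 and at day 1, and limma called 0 of 3 endothelial markers in any group, also unadjusted. The immune markers called were Cd74 (-2.61), Lyz2 (-1.30) and Cd3g (-1.25) at day 0, Cd74 (-1.76) at day 0.5 and Lyz2 (-1.30) at day 1. The Paneth marker Lyz1 was at -3.54 at day 1, and whether the Lyz1 and Lyz2 probes share signal was not tested. Mesenchyme markers had 2 of 7 lower at day 0 and 1 of 7 higher at day 0.5 and at day 1. For immune and mesenchyme markers the day 1 counts were smaller shares than the 20.5% of all genes called. The part of these markers in the values of the bile acid genes was not tested either.

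The genes most like Fabp6 were found by the Pearson correlation of the log2 ratio over the 8 arrays, among the 1654 genes with an SD over arrays above 0.5. They were the brush border peptidase Enpep (r = 0.985), the antimicrobial lectin Reg3a (0.980), the ephrin Efna1 (0.974), Tmigd1 (0.972) and the COPII coat subunit Sec24d (0.971). The points share groups and RNA sources, and the LiCl arrays stand apart from the rest, so these values mostly follow that difference in sign. Over the 6 arrays without LiCl the most alike were Cyp3a41a (0.977), Ncoa4 (0.964), Gclm (0.957), Fam162a (0.942) and Pck1 (0.940), and 0 of these were among the first 5.

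For Fgf15 the most alike over 8 arrays were the Paneth cell lectin Itln1 (r = 0.914), Pdlim1 (0.906), Dcakd (0.899), Atxn10 (0.893) and the defensin Defa3 (0.883). Likeness here is of shape and not of level: Itln1 and Defa3 were among the Paneth markers lower at day 0. Over the 6 arrays without LiCl they were Bmp3 (0.967), Tm6sf2 (0.963), Ifi27 (0.943), Adh1 (0.942) and Tmem82 (0.926), again with 0 shared. Within the pathway, over those 6 arrays, Fgf15 correlated with Slc51a at 0.904 and with Fabp6 at -0.430, and Fabp6 correlated with Slc10a2 at 0.784. These are descriptions of 6 arrays from 3 groups.

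**Figure D4:**
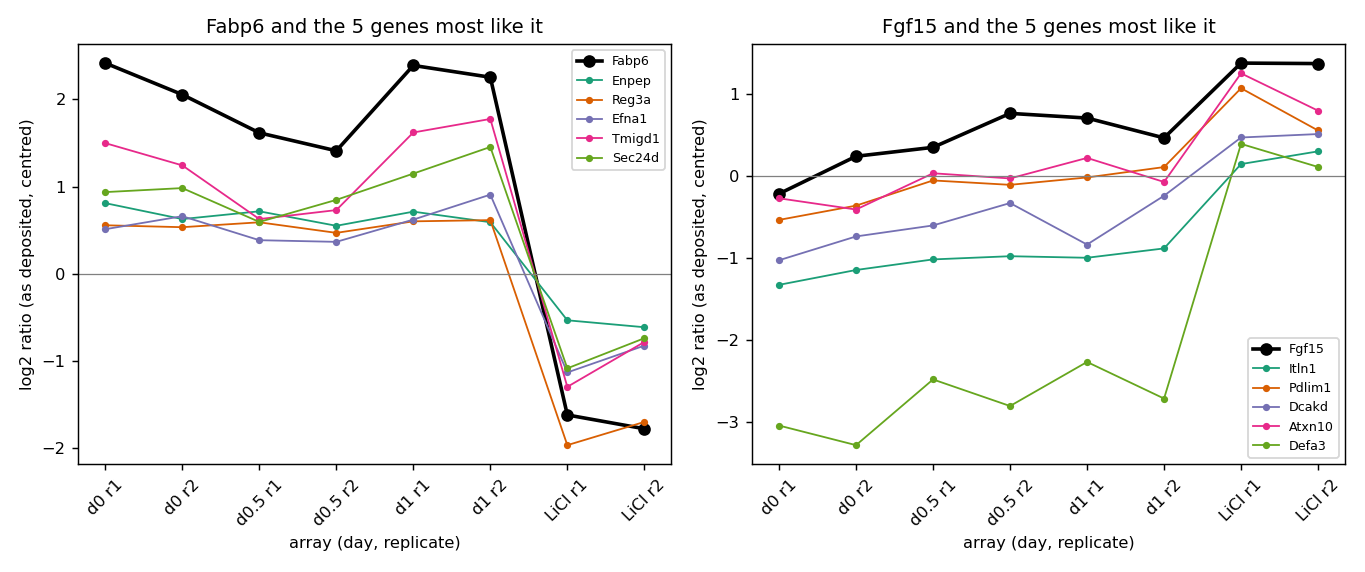
Log2 ratio (vertical) on each of the 8 arrays (horizontal, by group and replicate) of Fabp6 and of Fgf15, each with the 5 genes most correlated with it over those arrays, where lines only join the values of a gene. In the left panel all genes drop with LiCl as deposited, and in the right panel Fgf15 is highest on the 2 LiCl arrays.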

How the data were processed

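Per the labels, RNA of intestinal crypt cells was amplified and 2 dye-labelled RNAs were hybridised together on MEEBO long-oligonucleotide arrays. The authors deposited 1 log ratio per probe and array, taken here as log2 ratios. Their base, background correction and normalization were not given in the sources used here. Without intensities the signal over background is unknown, and the number of arrays limits the precision. The direction, null over wild type, is likely because channel 1 is the null RNA in the labels and Paneth cell genes, the cells of the series title, are lower. Per the labels the null dye was swapped within each group except day 0.5, where it was Cy5 on both arrays, whereas the series text has a swap in every comparison.

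Of 38467 probes 22941 had 1 gene symbol, several symbols were given for none, and 15526 had no symbol. After 636 named control probes were left out, 22305 probes of 15123 genes remained, averaged by gene. After median centring of the arrays, a model in limma 3.58.1 (R 4.3.3) held a mean for each group and a dye term over the 8 arrays (3 residual degrees of freedom, 4.09 from the prior), tested two-sided with Benjamini-Hochberg adjustment. At day 0.5 the fitted value is adjusted for dye and is not the array mean. The script was tested on simulated data. Other steps used Python 3.11.15, numpy 2.4.6, pandas 2.3.3 and matplotlib 3.10.9.

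Differences between replicates 1 and 2 correlated between groups at 0.210 to 0.278 (6 pairs), so the replicate numbers, from the sample titles, pair the arrays by the rule of a correlation above 0.1 in every pair. The main fit has no block, and the blocked fit is an alternative. The members and lists were chosen with earlier results of these data known. Named list genes are the called ones, at most the 4 largest a group (with others where a result turns on them). The likeness genes are the 5 with the highest correlation.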

Additional observations from a re-analysis of the deposited data

Results flagged for a closer look

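From day 1 to day 1 with LiCl, as deposited, the change of the log ratio was called by limma for Slc51b (-1.89), Nr1h4 (-1.22), Slc51a (-1.19) and Slc10a2 (-0.97). For Fabp6 the same change was -4.02, where both day 1 arrays lay above 0 and both LiCl arrays below, and this difference was not tested. With the LiCl arrays turned in sign, the change was not called for any of the 4 tested genes. What the second channel of the LiCl arrays held is open as well. From day 0 to day 1 the change was called for Slc51b at 0.85. Groups held 2 arrays, too few to look for single outlying arrays.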

How the results depend on the processing

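Among the 5 tested bile acid genes no called value changed sign under the alternatives run. Turning the LiCl arrays was run only for the change from day 1 to LiCl. It would by construction reverse the called Slc51b value with LiCl (-0.83). Of the 2 genes without a test, the Fgf15 change from day 1 to LiCl went from 0.79 to -1.96 with the LiCl arrays turned, its day 0 value from 0.01 to -0.28 without replicate 2 of day 0, and the Fabp6 change from day 0 to day 1 from 0.09 to -0.14 with scaled arrays and to -0.10 without replicate 2 of day 0. Sizes moved with scaled arrays too. Fabp6 went from 2.32 to 1.89 at day 1 and from -1.70 to -2.65 with LiCl. Fgf15 with LiCl went from 1.37 to 2.13, and its change from day 1 to LiCl from 0.79 to 1.65. The number of genes called over the whole table moved more. With the replicate block it was 610 at day 0, 237 at day 0.5, 922 with LiCl and 1964 for the change from day 0 to day 1, and blocking changed no other member call than those of Slc51a and Nr1h4 given above. With arrays scaled to the same spread the counts were 160 at day 0, 24 at day 0.5, 2029 at day 1, 1653 with LiCl and 493 for the change from day 0 to day 1. At day 0.5 it was 341 without the dye term and 321 when day 0.5 was taken as a dye swap. Turning the LiCl arrays gave 1033 for the change from day 1 to LiCl. Leaving out 1 array at a time gave 26 to 305 at day 0, 9 to 50 at day 0.5, 912 to 3270 at day 1, 4 to 301 with LiCl, 110 to 1358 from day 0 to day 1 and 1484 to 2824 from day 1 to LiCl. With scaled arrays the Nr1h4 call at day 1 (adjusted p = 0.114, limma) and the Slc51b change from day 0 to day 1 (0.105) were lost, while Slc10a2 (0.0190) and Slc51a (0.00580) passed with LiCl. Without both LiCl arrays, an alternative chosen after seeing the data, the counts were 305, 50, 3270 and 1358. Taking the median of probes changed no call of the 5 tested genes, each of which has 1 probe. The cause of these shifts was not tested.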
